A study of Mus musculus with 12 samples.

Results

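The genes described here encode the digestive machinery of the lysosome and the proton pump that acidifies it. One subgroup holds 44 lysosomal genes, for proteases, glycosidases and sulfatases, lipid hydrolases and their partners, membrane proteins, and the MiT-TFE transcription factors Tfeb, Tfe3 and Mitf. The other holds the protein-coding genes whose symbol begins with Atp6v, which encode subunits of the vacuolar ATPase (V-ATPase). A gene was kept where at least 10 counts were present in at least 3 libraries. All 44 lysosomal genes and 18 of the 23 Atp6v genes passed, which gave 62 members among the 54532 genes listed. Atp6v1g3, Atp6v1fnb, Atp6v0a4, Atp6v1b1 and Atp6v1e2 failed, with at most 0, 1, 5, 7 and 9 counts in any library. All 62 members were among the 18537 genes tested, and 61 of them would have passed in the 9 libraries outside the 3d-SN011 group; Atp6v0d2 is the exception.

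The study sequenced polyA+ RNA of the striatum of C57BL/6J mice and asked how expression after stroke is altered by SN-011, which blocks the innate immune protein STING. Stroke was modelled by tMCAO, a temporary block of the middle cerebral artery. The 12 libraries fall into 4 groups of 3, called 3d-SN011 (tMCAO with SN-011), SN011 (also tMCAO with SN-011), vehicle (tMCAO with PBS) and sham (sham surgery with PBS). The labels give neither the meaning of the prefix 3d nor a dose, age, sex or sampling time, and no vehicle or sham library carries that prefix. What the prefix stands for and the drug therefore cannot be told apart in the comparisons of 3d-SN011 with vehicle and sham, and the labels of 3d-SN011 and SN011 differ by the prefix alone. 3d-SN011 and SN011 also differ from sham by tMCAO, which cannot be told apart from the drug in those comparisons. The labels do not say that replicates are separate animals, so p-values measure the spread between libraries.

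Lysosomal hydrolases are made in the endoplasmic reticulum, reach the lysosome mostly through mannose 6-phosphate receptors, and work at acid pH. The V-ATPase supplies that acid: its cytosolic V1 sector hydrolyses ATP and its membrane V0 sector carries protons, and several subunits exist as isoforms with tissue-specific use. In neurons the pump also fills synaptic vesicles, while microglia and macrophages carry abundant lysosomes for digesting engulfed material. TFEB, TFE3 and MITF bind E-box sequences near the start of many lysosomal and V-ATPase genes, a set known as the CLEAR network.

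Because members of both subgroups are known as targets of these factors, their promoters were read from RefSeq (GRCm38.p6), 250 bases before to 50 after the start, for the 51 members with an entry. The 7-base sequence TCACGTG, on either strand, was present in 14 of these 51 (27.5%), against 1160 of 27025 genes with such a window (4.29%). Among members with a single window it was present in 12 of 43 (27.9%), against 3.74% of all genes with a single window. The shorter CACGTG, which every TCACGTG contains, was present in 16 of 51 (31.4%), against 8.09% of genes. The 14 comprised 10 of 39 lysosomal members (25.6%) and 4 of 12 V-ATPase members (33.3%). Against vehicle in 3d-SN011 libraries they included 9 of 36 members that rose, 2 of 9 that fell (Gaa and Atp6v1a) and 3 of 6 that did not pass the test (Mcoln1, Atp6v0b and Atp6v0d1). A match is a description of the letters and not a measured binding site. The windows of 5 genes are printed 5′ to 3′, with each E-box match in capitals. They show that the same letters stood in the windows of genes of each kind, before or after the start. Ctsd (chr7:142387778-142388077, minus strand) and Atp6v0e (chr17:26676146-26676445, plus strand) rose. Mcoln1 (chr8:3500269-3500568, plus strand) did not pass the test. Gaa (chr11:119267713-119268012, plus strand) and Atp6v1a (chr16:44139210-44139509, minus strand) fell.
Ctsd: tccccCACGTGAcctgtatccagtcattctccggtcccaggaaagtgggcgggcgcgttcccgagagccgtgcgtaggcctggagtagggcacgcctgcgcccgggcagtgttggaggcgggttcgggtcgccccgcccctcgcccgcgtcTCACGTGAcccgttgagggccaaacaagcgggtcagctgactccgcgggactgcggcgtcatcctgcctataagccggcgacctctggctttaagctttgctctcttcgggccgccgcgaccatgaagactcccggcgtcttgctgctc
Atp6v0e: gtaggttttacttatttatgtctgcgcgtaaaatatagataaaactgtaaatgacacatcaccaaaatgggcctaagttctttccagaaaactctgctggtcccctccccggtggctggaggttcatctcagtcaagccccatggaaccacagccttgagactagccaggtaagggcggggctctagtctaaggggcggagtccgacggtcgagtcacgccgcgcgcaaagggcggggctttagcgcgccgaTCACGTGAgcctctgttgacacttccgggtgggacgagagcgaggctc
Mcoln1: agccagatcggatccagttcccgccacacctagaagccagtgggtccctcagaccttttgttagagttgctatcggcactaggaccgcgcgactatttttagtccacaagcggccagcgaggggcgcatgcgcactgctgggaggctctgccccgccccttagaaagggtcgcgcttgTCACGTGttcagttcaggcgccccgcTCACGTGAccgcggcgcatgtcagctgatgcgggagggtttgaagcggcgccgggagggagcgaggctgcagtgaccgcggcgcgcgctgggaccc
Gaa: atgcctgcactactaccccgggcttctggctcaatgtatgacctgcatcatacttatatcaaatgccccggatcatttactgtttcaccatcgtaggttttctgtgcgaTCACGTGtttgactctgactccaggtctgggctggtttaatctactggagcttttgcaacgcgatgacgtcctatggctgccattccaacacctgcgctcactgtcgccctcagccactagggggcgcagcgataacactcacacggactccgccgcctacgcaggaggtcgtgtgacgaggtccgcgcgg
Atp6v1a: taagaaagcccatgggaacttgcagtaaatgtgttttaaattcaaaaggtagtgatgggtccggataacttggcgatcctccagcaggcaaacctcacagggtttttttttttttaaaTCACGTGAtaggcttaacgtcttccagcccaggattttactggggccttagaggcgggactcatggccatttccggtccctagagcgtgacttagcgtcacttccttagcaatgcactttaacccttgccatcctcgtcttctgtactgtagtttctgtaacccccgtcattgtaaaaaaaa

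Library totals ran from 15806076 to 18622053 counts. SN011 replicate 3 stood apart from the other SN011 libraries. Counts of calls by the main edgeR fit, medians and fold changes of SN011 are given with and without it. Counts by unadjusted p, counts from other fits and SN011 means of length-scaled levels include it unless said. Markers of other cell types moved with the groups. The summed CPM (counts scaled to library size) of 14 markers of microglia and macrophages was 8364, 6519.5 and 6240.4 in 3d-SN011, 959, 741 and 2849.9 in SN011, 487, 474 and 604 in vehicle and 563, 498 and 523 in sham libraries. For 10 markers of striatal projection neurons, the defining cells of the labelled tissue, the summed CPM was 373, 1541 and 2261 in 3d-SN011, 8742, 9554 and 5341 in SN011, 9593, 9669 and 9254 in vehicle and 9714, 9058 and 9079 in sham libraries. All 10 had counts above 0 in every library, a bar too low to test the tissue label. All 10 fell in 3d-SN011 against vehicle, with a median log2 fold change of -2.87. All 14 microglia and macrophage markers rose, with a median of 3.62. For 8 astrocyte markers it was 13068, 15966 and 11139.9 in 3d-SN011, 6409.6, 5299 and 9569 in SN011, 4624, 4589 and 5002 in vehicle and 5186, 5078 and 4955 in sham libraries. The 6 oligodendrocyte markers summed to 14952 to 23737 CPM in 3d-SN011, 8327 to 12247 in SN011, 8720.4 to 10797 in vehicle and 9247 to 11849 in sham libraries, and 5 of the 6 rose in 3d-SN011 against vehicle. Of 5 endothelial markers 4 rose, with 263 to 413 CPM in 3d-SN011 and 222 to 246 in vehicle libraries, but 295 to 316 in sham libraries. Against sham, 2 of the 5 rose and 1 fell. Of 6 choroid plexus and ependymal markers 4 fell and 1 rose, with 107 to 835 CPM in 3d-SN011 and 1338 to 2714 in vehicle libraries, but 124 to 2515 in sham libraries. Of 10 general neuronal markers 9 fell, with 1178 to 1857 CPM in 3d-SN011 and 4712 to 4865 in vehicle libraries. Neutrophil markers were low, with summed values of 4.25, 2.72 and 6.46 CPM in 3d-SN011 and at most 1.15 CPM in any other library.

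In 3d-SN011 libraries the lysosomal genes were higher and most V-ATPase subunits lower than in the other groups. Of all counts, the 44 lysosomal members took 2.85, 2.24 and 2.83% in 3d-SN011, 0.603, 0.545 and 1.2% in SN011, 0.454, 0.467 and 0.506% in vehicle and 0.469, 0.456 and 0.457% in sham libraries. The 18 V-ATPase members took 0.197, 0.217 and 0.236% in 3d-SN011, 0.271, 0.279 and 0.25% in SN011, 0.279, 0.27 and 0.287% in vehicle and 0.276, 0.289 and 0.283% in sham libraries. For both measures the 3d-SN011 libraries did not overlap any other library, in opposite directions. Set against the sham mean, the mean log2 level of lysosomal members exceeded that of V-ATPase members by 2.5, 2.18 and 2.29 in 3d-SN011, by 0.47, 0.29 and 1.38 in SN011, and by -0.01, 0.07 and 0.12 in vehicle libraries. In bulk tissue, fewer cells of a type and less RNA per cell cannot be told apart, and the part of the marker shifts above in these values was not tested.

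**Figure D1:**
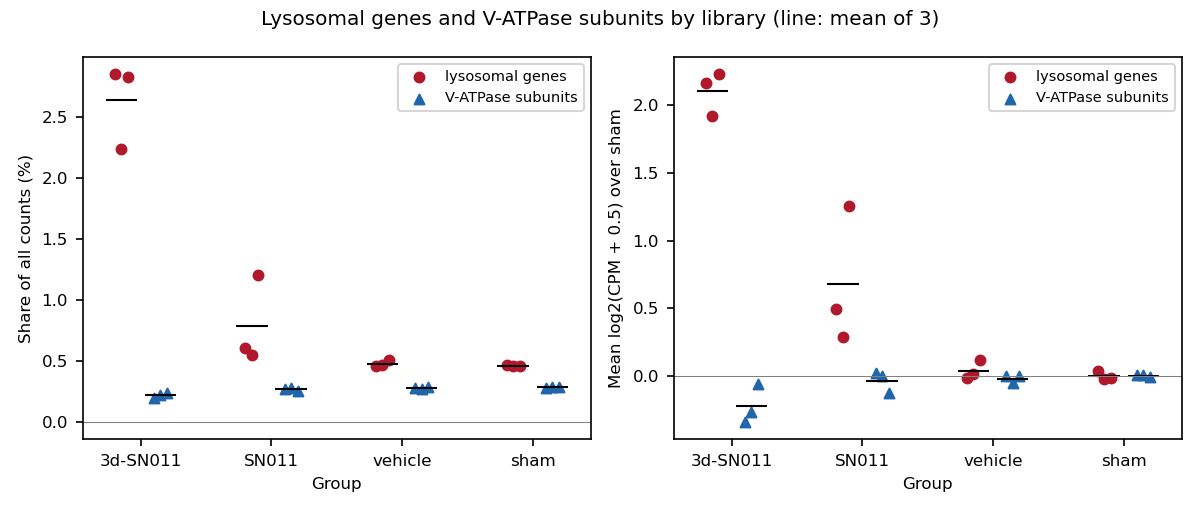
Left, summed share of all counts (percent, y axis) of the lysosomal members (circles) and V-ATPase members (triangles) in each library, by group (x axis); right, their mean log2(CPM + 0.5) minus the sham mean; lines are means of 3 libraries. The lysosomal share was 2.24 to 2.85% in 3d-SN011 and at most 1.20% elsewhere, while the V-ATPase share was 0.197 to 0.236% in 3d-SN011 and at least 0.250% elsewhere.

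Against vehicle, 39 of 44 lysosomal members rose in 3d-SN011 libraries (88.6%), where 28.9% of all genes tested were called higher. Gaa and Ids fell (4.55%), where 28.2% of all genes were called lower. These shares over all genes also stand beside the counts by role below. A call is an adjusted p under 0.05 by edgeR's quasi-likelihood test with Benjamini-Hochberg adjustment over all 18537 genes. Of the 18 V-ATPase members, 4 rose (22.2%) and 10 fell (55.6%); the 4 include Atp6v0d2, whose difference follows from the count rule. The median log2 fold change was 2.07 over lysosomal members and -0.50 over V-ATPase members, beside 0.0093 over all genes. In 39 lysosomal and 14 V-ATPase members the 3d-SN011 and vehicle libraries did not overlap in either direction, where 59.4% of all genes did not. More than a 2-fold difference was called in 33 lysosomal and 5 V-ATPase members, and in 33.2% of all genes.

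**Figure D2:**
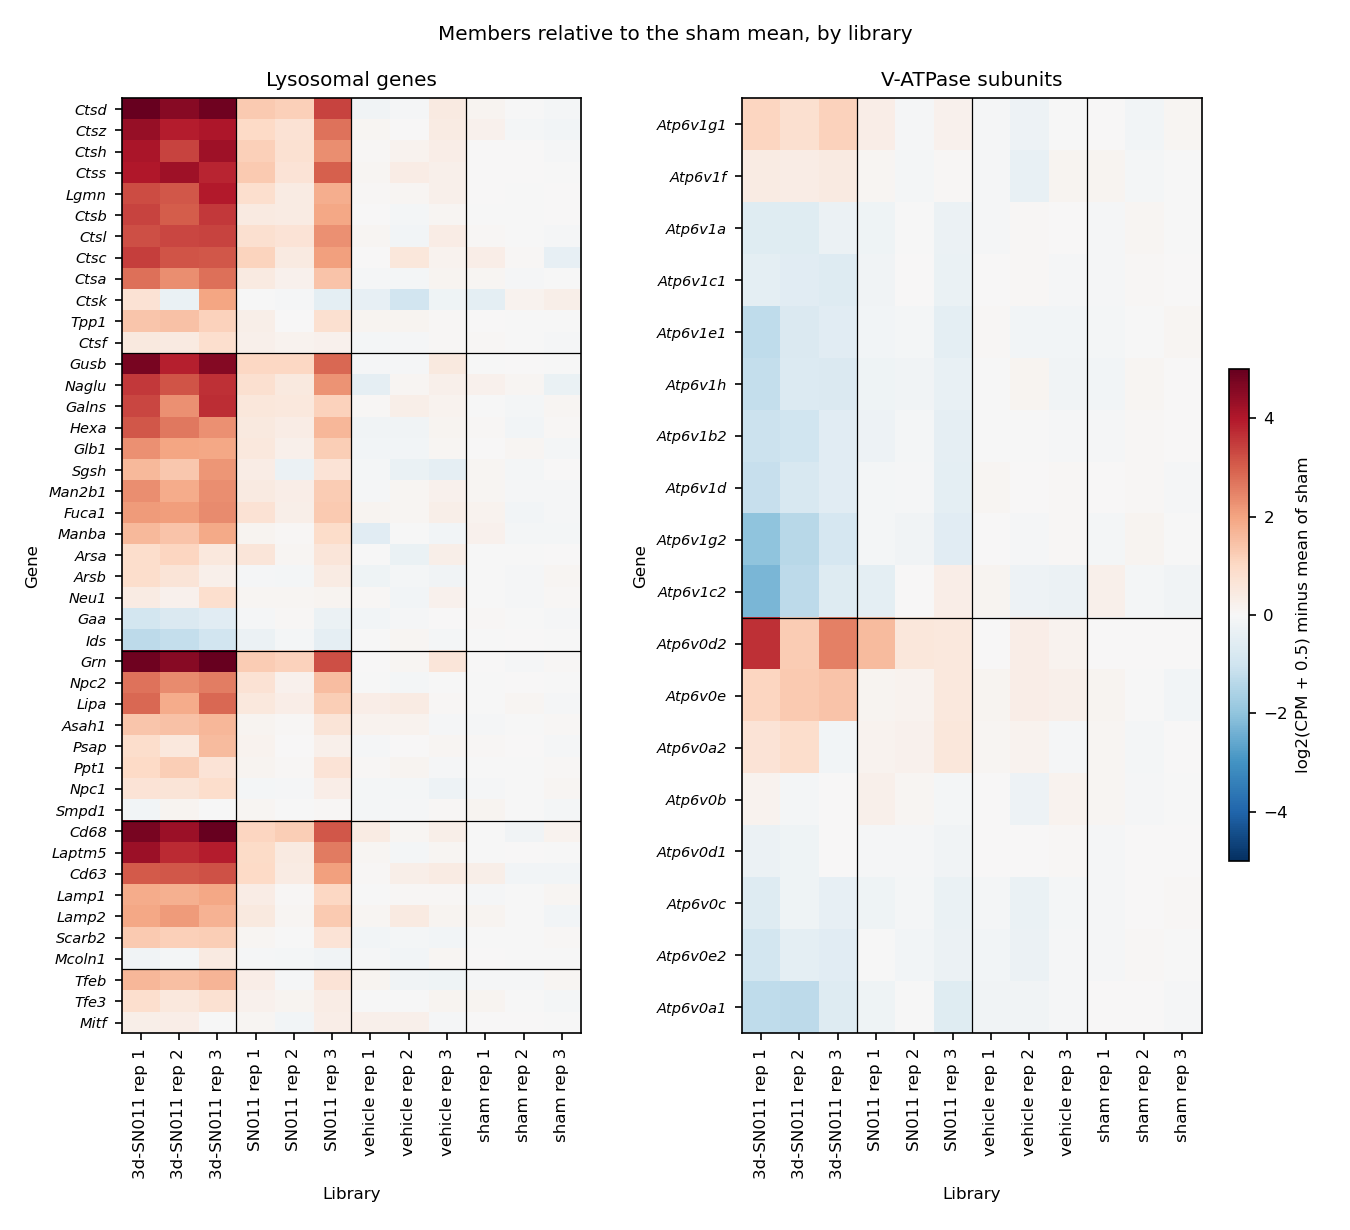
Level of each of the 62 members (rows, by role) in each of the 12 libraries (columns, 3d-SN011 at the left), as log2(CPM + 0.5) minus the mean of the 3 sham libraries. Most lysosomal rows are high in the 3d-SN011 columns and most V1 rows are low there, and in most lysosomal rows SN011 replicate 3 lies between the other SN011 libraries and the 3d-SN011 libraries.

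**Figure D3:**
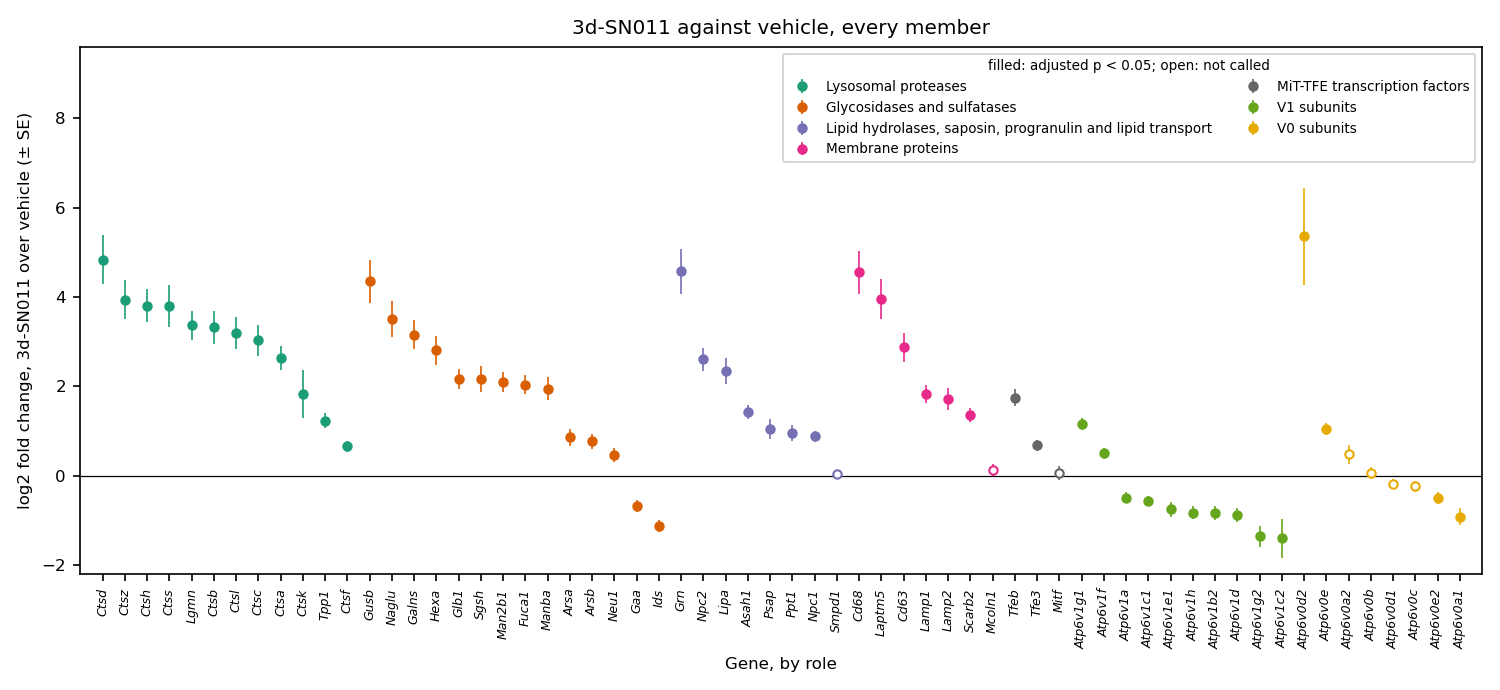
Log2 fold change ± SE of 3d-SN011 over vehicle (y axis) for each of the 62 members, grouped by role (x axis); filled points are called and open points are not. The proteases run from 0.66 to 4.83, whereas 8 of the 10 V1 subunits lie below 0; the point of Atp6v0d2 rests on 3 vehicle counts and its size is given in the text as a ratio with its interval.

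All 12 lysosomal proteases rose in 3d-SN011 libraries against vehicle, with a median log2 fold change of 3.26 and a range of 0.66 (Ctsf) to 4.83 (Ctsd). Ctsh had 155, 94.3 and 176 CPM in 3d-SN011, 20.4, 15.2 and 45.4 in SN011, 9.12, 9.96 and 11.2 in vehicle and 8.8, 8.97 and 8.41 in sham libraries. The 3d-SN011 libraries of this cysteine protease with aminopeptidase activity lay above every other library, and the log2 fold change over vehicle was 3.81 ± 0.36 (adjusted p = 1.37e-05) (± SE, as for all fold changes). Lgmn had 849, 749 and 1378 CPM in 3d-SN011, 159, 118 and 314 in SN011, 90.4, 93.8 and 104 in vehicle and 89.4, 85.5 and 88.4 in sham libraries. Legumain, an asparaginyl endopeptidase that processes other cathepsins, thus showed the same order of groups, and its log2 fold change was 3.37 ± 0.33 (adjusted p = 1.48e-05). Ctsa had 712, 522 and 716 CPM in 3d-SN011, 141, 121 and 279 in SN011, 99.3, 98.5 and 115 in vehicle and 111, 99.9 and 103 in sham libraries. Cathepsin A is a carboxypeptidase that also protects beta-galactosidase and neuraminidase from breakdown, and it rose by a log2 fold change of 2.64 ± 0.27 (adjusted p = 1.57e-05). Ctsd had 6916, 4135 and 5210.4 CPM in 3d-SN011, 438, 402 and 1865 in SN011, 157, 171 and 242 in vehicle and 194, 174 and 163 in sham libraries. This aspartic protease, named after its values were seen, had the highest log2 fold change among the lysosomal members, 4.83 ± 0.55 (adjusted p = 2.25e-05); 34.4% of its exon bases are shared with Gm49369 on the same strand. Per kilobase of exon Ctsd averaged 2306 CPM in 3d-SN011, 384 in SN011 (179 without replicate 3), 80.8 in vehicle and 75.3 in sham libraries, which gave it rank 1 among lysosomal members in 3d-SN011, 2 in SN011 with or without that library, 5 in vehicle and 6 in sham. Ctsk, the collagen-cleaving cathepsin K, was called at a log2 fold change of 1.83 ± 0.54 (adjusted p = 0.0115), but its call was lost without 3d-SN011 replicate 3 (log2 fold change 0.94, adjusted p = 0.077) and without vehicle replicate 2 (1.59, adjusted p = 0.0523). It was also lost with limma voom with quality weights (1.17, adjusted p = 0.0597).

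Of the 14 glycosidases and sulfatases, 12 rose and 2 fell, with a median log2 fold change of 2.07. Glb1 had 74.5, 60.2 and 57 CPM in 3d-SN011, 21.3, 17.8 and 35.5 in SN011, 13.6, 13.5 and 15.7 in vehicle and 14.9, 15.6 and 13.8 in sham libraries. Beta-galactosidase, which removes galactose from gangliosides and keratan sulfate, rose by a log2 fold change of 2.16 ± 0.22 (adjusted p = 1.57e-05). Galns had 46.1, 21.7 and 59.3 CPM in 3d-SN011, 6.3, 6.14 and 9.64 in SN011, 4.31, 5.14 and 4.76 in vehicle and 4.06, 3.82 and 4.48 in sham libraries. This sulfatase of keratan and chondroitin sulfate rose by a log2 fold change of 3.16 ± 0.32 (adjusted p = 1.58e-05), and its 3d-SN011 libraries also spanned a wide range among themselves. Fuca1 had 108, 104 and 126 CPM in 3d-SN011, 40.8, 29.6 and 60.5 in SN011, 26.5, 25.9 and 30.1 in vehicle and 27.4, 22.3 and 23.4 in sham libraries. Fuca1 encodes the alpha-L-fucosidase that trims fucose from glycoproteins, and its log2 fold change was 2.04 ± 0.21 (adjusted p = 1.58e-05). Gusb, the beta-glucuronidase of the lysosome, had the highest log2 fold change of the role, 4.35 ± 0.48 (adjusted p = 1.88e-05).

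The members of this role that fell were Ids and Gaa. Ids had 217, 234 and 273 CPM in 3d-SN011, 434, 494 and 389.5 in SN011, 518, 563 and 503 in vehicle and 525, 545 and 526 in sham libraries. Ids encodes iduronate 2-sulfatase, which starts the breakdown of heparan and dermatan sulfate, and all 3d-SN011 libraries were below every other library, with a log2 fold change of -1.13 ± 0.13 (adjusted p = 2.56e-05). Gaa had 214, 246 and 279 CPM in 3d-SN011, 389.6, 432 and 332 in SN011, 376, 396 and 414 in vehicle and 430.4, 404 and 396 in sham libraries. Gaa encodes the acid alpha-glucosidase that digests glycogen; it likewise did not overlap any other group and fell by 0.68 ± 0.14 on the log2 scale (adjusted p = 0.000933). In vehicle libraries Ids and Gaa had ranks 2 and 4 among lysosomal members per kilobase of exon, at 104 and 82.6 CPM, behind Psap at 462 and with Lamp1 between them at 102. Neu1, the sialidase that cathepsin A protects, was called at a log2 fold change of 0.46 ± 0.15 (adjusted p = 0.0198), and lost its call without 3d-SN011 replicate 3 (0.26, adjusted p = 0.0839), without vehicle replicate 1 (0.46, adjusted p = 0.0555) and without vehicle replicate 2 (0.37, adjusted p = 0.0910). It was also lost with only the 6 libraries compared (0.45, adjusted p = 0.0806) and with offsets for GC content and length (0.27, adjusted p = 0.107).

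Among the 8 lipid hydrolases and their partners, 7 rose and Smpd1 did not pass the test, with a median of 1.23. Grn had 1492, 1214 and 1727 CPM in 3d-SN011, 125, 115 and 488 in SN011, 52, 54.9 and 78.6 in vehicle and 51.9, 49.2 and 52.9 in sham libraries. Progranulin, the product of Grn, is a secreted and lysosomal glycoprotein that supports hydrolase function, and its log2 fold change of 4.58 ± 0.50 (adjusted p = 1.87e-05) was the highest of the role. Npc2 had 436, 340.2 and 391 CPM in 3d-SN011, 107, 77 and 191 in SN011, 65.1, 60.7 and 65.4 in vehicle and 65.5, 67.3 and 64.2 in sham libraries. NPC2 hands cholesterol to NPC1 in the lysosomal lumen, and Npc2 rose by a log2 fold change of 2.61 ± 0.26 (adjusted p = 1.48e-05), while Npc1 rose by a log2 fold change of 0.88 ± 0.13 (adjusted p = 0.000102). Asah1 had 134, 140.4 and 159 CPM in 3d-SN011, 55.6, 52.9 and 79 in SN011, 56.7, 56.5 and 48 in vehicle and 48.4, 49.9 and 52.6 in sham libraries. Acid ceramidase, encoded by Asah1, thus rose by a log2 fold change of 1.43 ± 0.15 (adjusted p = 1.6e-05), whereas the SN011 and vehicle libraries of this gene overlapped. Psap had 2312, 1792 and 3694 CPM in 3d-SN011, 1397, 1264 and 1481 in SN011, 1191, 1262 and 1348 in vehicle and 1286, 1255 and 1208 in sham libraries. Prosaposin, the precursor of the saposins that present sphingolipids to their hydrolases, was the highest lysosomal member per kilobase in SN011, vehicle and sham libraries; it rose by a log2 fold change of 1.04 ± 0.22 (adjusted p = 0.00157), and 3d-SN011 replicate 3 stood above the other 2. Smpd1 had 74.7, 89.9 and 81.7 CPM in 3d-SN011, 89, 81.7 and 86.6 in SN011, 76.3, 79.8 and 85.5 in vehicle and 89.7, 80.9 and 77.6 in sham libraries. Acid sphingomyelinase, encoded by Smpd1, had overlapping groups and a log2 fold change of 0.03 ± 0.10 (adjusted p = 0.836).

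Of the 7 membrane proteins, 6 rose and Mcoln1 did not pass the test, with a median of 1.83. Cd68 had 339, 245 and 449 CPM in 3d-SN011, 26.2, 28.6 and 107 in SN011, 16.1, 12.9 and 15.1 in vehicle and 11.8, 10.7 and 13.8 in sham libraries. CD68, a lysosomal glycoprotein used as a marker of microglia and macrophages, rose by a log2 fold change of 4.55 ± 0.49 (adjusted p = 1.82e-05). Lamp1 had 966, 926 and 1029.8 CPM in 3d-SN011, 349, 277 and 551 in SN011, 266, 278 and 276 in vehicle and 259, 263 and 284 in sham libraries. Lamp1 encodes a main glycoprotein of the limiting membrane, present in lysosomes of all cells, and rose by a log2 fold change of 1.83 ± 0.20 (adjusted p = 2.03e-05). Cd63 had 307, 318 and 337 CPM in 3d-SN011, 73.6, 49.2 and 152 in SN011, 37.6, 45.4 and 48.3 in vehicle and 44.3, 33.5 and 32.8 in sham libraries. The tetraspanin CD63 of late endosomes followed the same order, with a log2 fold change of 2.87 ± 0.32 (adjusted p = 2.07e-05). Mcoln1 had 67.3, 70.1 and 103 CPM in 3d-SN011, 71.6, 70.1 and 67.1 in SN011, 71.4, 69.2 and 80.2 in vehicle and 76.4, 74.4 and 74.7 in sham libraries. Mcoln1 encodes TRPML1, the calcium channel of the lysosome, and its groups overlapped, with a single high 3d-SN011 library (0.12 ± 0.14, adjusted p = 0.483).

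Of the 3 MiT-TFE factors, Tfeb and Tfe3 rose and Mitf did not pass the test. Tfeb had 38.8, 34.9 and 40.6 CPM in 3d-SN011, 15.3, 11.4 and 19.9 in SN011, 13.3, 10.5 and 10.4 in vehicle and 11.6, 11.6 and 13 in sham libraries. The 3d-SN011 libraries lay above all others, and the log2 fold change over vehicle was 1.74 ± 0.19 (adjusted p = 1.86e-05). Tfe3 had 77.6, 61.6 and 73.6 CPM in 3d-SN011, 50.1, 47.6 and 55.6 in SN011, 42.6, 42.4 and 47.7 in vehicle and 46.8, 42.9 and 39.7 in sham libraries. Its groups were closer, but 3d-SN011 did not overlap the rest and the log2 fold change was 0.68 ± 0.12 (adjusted p = 0.000332). Mitf had 22.8, 23.7 and 18.5 CPM in 3d-SN011, 20, 16.7 and 23.7 in SN011, 22.4, 22.1 and 18 in vehicle and 18.6, 19 and 18.1 in sham libraries. For Mitf the 4 groups overlapped and the log2 fold change was 0.06 ± 0.16 (adjusted p = 0.764). These are transcript levels; the factors are known to be controlled mainly by phosphorylation and by moving into the nucleus, which RNA does not measure.

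**Figure D4:**
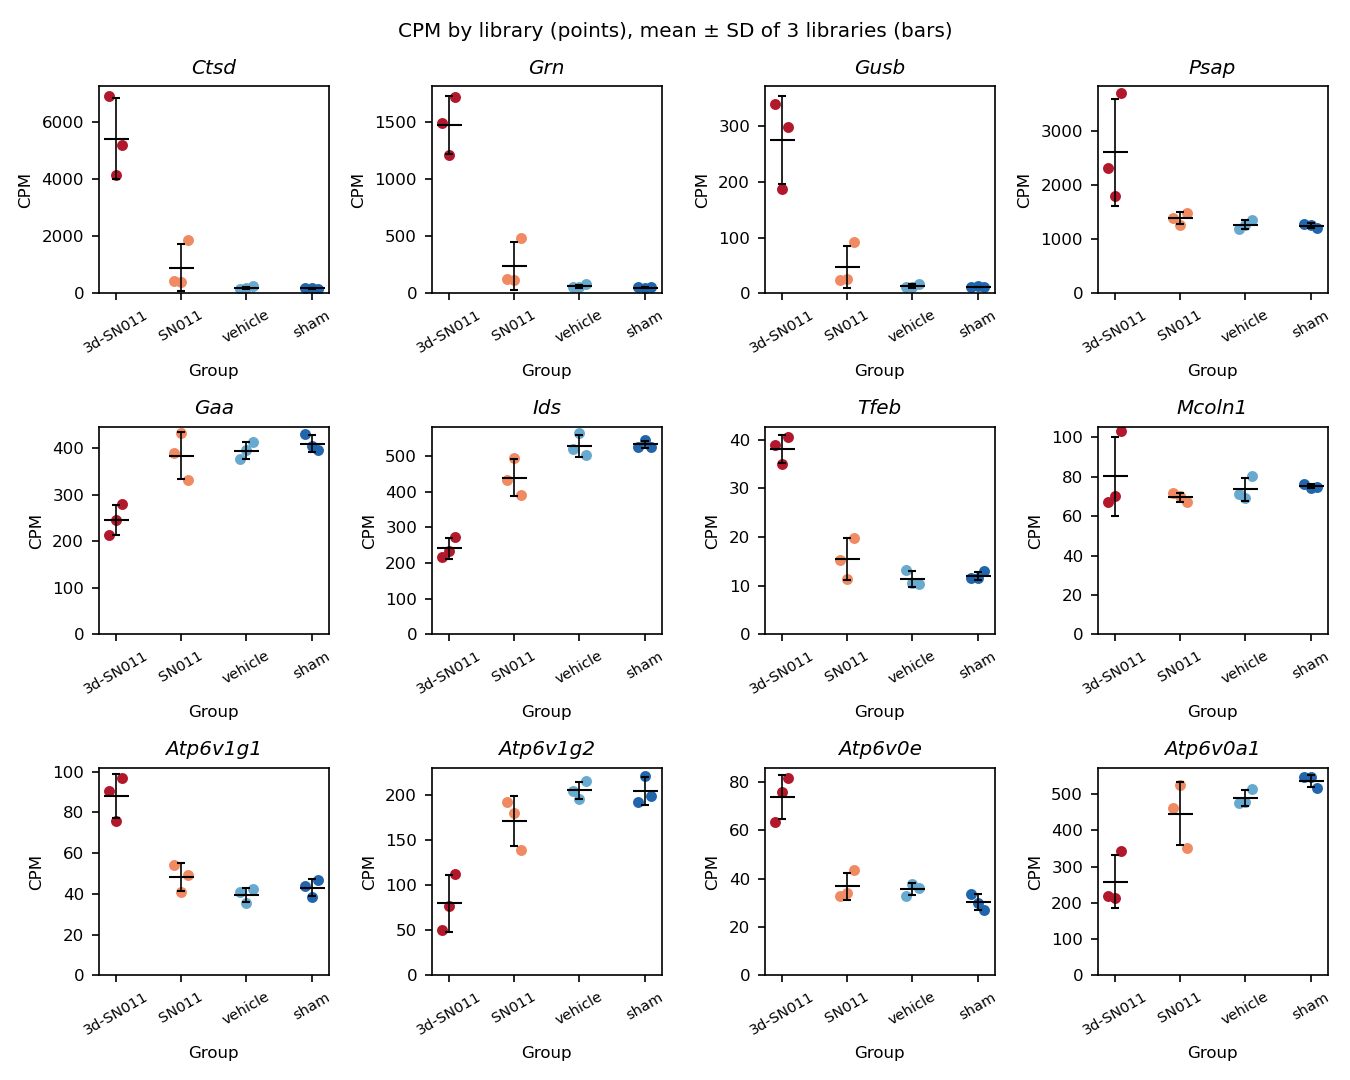
CPM (linear y axes from 0) of 12 members in each library, by group (x axis, 3d-SN011 at the left); points are libraries and bars the mean ± SD of 3. Ctsd, Grn, Gusb, Tfeb, Atp6v1g1 and Atp6v0e are high in 3d-SN011, Gaa, Ids, Atp6v1g2 and Atp6v0a1 are low there, and Mcoln1 overlaps between groups.

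Of the 10 subunits of the V1 sector, 2 rose and 8 fell in 3d-SN011 libraries against vehicle, with a median log2 fold change of -0.79. Of all genes, 28.9% were called higher and 28.2% lower. Atp6v1g1 had 90.7, 75.9 and 96.9 CPM in 3d-SN011, 54.2, 41.1 and 49.4 in SN011, 40.7, 35.7 and 42.3 in vehicle and 43.9, 38.7 and 46.6 in sham libraries. G1 is the broadly expressed isoform of the G subunit in the stator stalk, and Atp6v1g1 rose by a log2 fold change of 1.15 ± 0.14 (adjusted p = 2.6e-05). Atp6v1f had 62.3, 61.5 and 64.3 CPM in 3d-SN011, 49.9, 44.6 and 49.3 in SN011, 45.2, 35.9 and 52 in vehicle and 51.4, 43.8 and 46.6 in sham libraries. This subunit of the central rotor rose by a log2 fold change of 0.50 ± 0.13 (adjusted p = 0.00516), a call that was lost when GC content and length entered as offsets. Atp6v1g2 had 50.1, 76.9 and 112 CPM in 3d-SN011, 193, 180.2 and 139 in SN011, 204, 196 and 215 in vehicle and 192, 221 and 199 in sham libraries. G2 is the neuronal isoform of the same stalk subunit, and Atp6v1g2 changed in the opposite direction to Atp6v1g1, by -1.36 ± 0.23 (adjusted p = 0.000271). Atp6v1d had 71.6, 90.6 and 107 CPM in 3d-SN011, 148, 153 and 115 in SN011, 169, 164 and 164 in vehicle and 160.3, 164 and 155 in sham libraries. Subunit D is the rotor shaft, and Atp6v1d changed by a log2 fold change of -0.88 ± 0.15 (adjusted p = 0.00028). Atp6v1h had 58.5, 84.2 and 82.4 CPM in 3d-SN011, 117, 120.3 and 104 in SN011, 133, 148 and 120.0 in vehicle and 124, 146 and 138 in sham libraries. Subunit H holds ATP hydrolysis in check when V1 is detached, and Atp6v1h changed by a log2 fold change of -0.83 ± 0.15 (adjusted p = 0.000355).

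The catalytic core of V1 was lower as well. Atp6v1a, the ATP-hydrolysing subunit A, changed by a log2 fold change of -0.50 ± 0.12 (adjusted p = 0.00381), and Atp6v1b2, the brain isoform of its partner B, by -0.84 ± 0.15 (adjusted p = 0.000461). Atp6v1e1 and Atp6v1c1, which join the stator to the membrane sector, changed by a log2 fold change of -0.76 ± 0.17 (adjusted p = 0.00205) and -0.57 ± 0.11 (adjusted p = 0.00079). Atp6v1c2, a second isoform of C at low level, had 0.461, 1.38 and 2.42 CPM in 3d-SN011 libraries and 4.62, 3.38 and 3.28 in vehicle libraries. Its call (-1.40 ± 0.44, adjusted p = 0.0164) was lost without vehicle replicate 1 (-1.24, adjusted p = 0.0597).

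Of the 8 V0 subunits, 2 rose (Atp6v0e and the selected Atp6v0d2) and 2 fell. These counts are close to the shares of all genes called, 28.9% higher and 28.2% lower. The other 4 (Atp6v0b, Atp6v0a2, Atp6v0d1 and Atp6v0c) did not pass the test, and the median log2 fold change was -0.06. Atp6v0e had 63.6, 76 and 81.6 CPM in 3d-SN011, 33, 34 and 43.4 in SN011, 32.9, 37.7 and 36.2 in vehicle and 33.5, 30.1 and 27.1 in sham libraries. Atp6v0e encodes the small membrane subunit e1, and rose by a log2 fold change of 1.05 ± 0.14 (adjusted p = 5.3e-05). Atp6v0e2 had 125, 169 and 159 CPM in 3d-SN011, 233, 215 and 191 in SN011, 216, 194 and 228 in vehicle and 228, 244 and 233 in sham libraries. Its isoform e2, enriched in brain, fell: the log2 fold change was -0.49 ± 0.13 (adjusted p = 0.00661). Atp6v0a1 had 219.6, 214 and 342 CPM in 3d-SN011, 462, 525 and 352 in SN011, 474, 478 and 515 in vehicle and 546, 546 and 516 in sham libraries. The a1 subunit anchors the stator and forms part of the proton path, mainly in neurons and synaptic vesicles, and Atp6v0a1 changed by a log2 fold change of -0.92 ± 0.19 (adjusted p = 0.00127). The 4 subunits without a call had log2 fold changes of 0.06 ± 0.13 (adjusted p = 0.737) for Atp6v0b and -0.24 ± 0.12 (adjusted p = 0.107) for Atp6v0c, both of the proton-carrying ring, -0.18 ± 0.10 (adjusted p = 0.146) for Atp6v0d1 of the rotor, and 0.48 ± 0.21 (adjusted p = 0.0646) for Atp6v0a2. Atp6v0c has near-identical pseudogenes, so its counts are uncertain.

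Atp6v0d2, an isoform of the rotor subunit d known from osteoclasts, macrophages and kidney, had 112, 14 and 44 counts in 3d-SN011, 17, 4 and 4 in SN011, 0, 2 and 1 in vehicle and 0 in each sham library. It passed the count rule only through 3d-SN011 libraries and 1 SN011 library, so a difference was built into its selection and the values that follow are a description. From summed counts of 170 in 3d-SN011, 25 in SN011 and 3 in vehicle, with 112 of the 170 in 1 library, the ratio to vehicle was 45.6 in 3d-SN011 (exact 95% interval 15.3 to 223) and 7.43 in SN011 (2.27 to 38.4), intervals that cover counting error only. The summed CPM of the 3 osteoclast markers was 8.44, 2.52 and 10.8 in 3d-SN011, 2.08, 1.11 and 2.03 in SN011, 0.312, 0.716 and 0.772 in vehicle and 0.971, 0.485 and 0.605 in sham libraries, with Calcr at most 0.877 and Ocstamp at most 0.205 CPM in any library. Acp5, the remaining marker, thus made up most of the sums in 3d-SN011, and it is also among the further lysosomal genes listed below.

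In the G, a and e places of the pump the same isoforms were present in all groups in different shares, which are given as values with no test. As a share of the length-scaled CPM of Atp6v1g1 and Atp6v1g2, Atp6v1g1 made up 80, 68.6 and 65.6% in 3d-SN011, 38.4, 33.5 and 44% in SN011, 30.6, 28.8 and 30.3% in vehicle and 33.5, 27.9 and 34.1% in sham libraries. The lowest 3d-SN011 library, at 65.6%, lay above the highest of the others, at 44.0%, while the summed G level averaged 109 CPM per kilobase in 3d-SN011, 110.5 in SN011, 116.5 in vehicle and 119 in sham libraries. Scaling to the longest transcript gave mean Atp6v1g1 shares of 65.3, 32.1, 24.2 and 26.0% in 3d-SN011, SN011, vehicle and sham. For the a subunit, Tcirg1 was included although its symbol kept it out of the 62; it encodes a3, the isoform of osteoclasts and macrophage lysosomes. Of subunit a, Tcirg1 made up 48.7, 34.5 and 54.8% in 3d-SN011, 8.45, 5.66 and 17.2% in SN011, 5.14, 4.39 and 5.81% in vehicle and 4.47, 3.99 and 4.5% in sham libraries. Its own log2 fold change over vehicle was 3.49 ± 0.38 (adjusted p = 1.83e-05) in 3d-SN011 libraries, while the summed a level averaged 114, 95.4, 94.2 and 100.2 CPM per kilobase in 3d-SN011, SN011, vehicle and sham. The a1 isoform Atp6v0a1 averaged 34.4, 71.0, 79.2 and 81.6% of that place in the same order of groups. Of subunit e, Atp6v0e made up 24.6, 22.4 and 24.8% in 3d-SN011, 8.32, 9.19 and 12.7% in SN011, 8.91, 11.1 and 9.25% in vehicle and 8.62, 7.35 and 6.96% in sham libraries, and the summed e level averaged 83.2, 99.4, 98.8 and 106.7 CPM per kilobase in 3d-SN011, SN011, vehicle and sham. In GRCm38 with the GENCODE M21 annotation these genes are Atp6v1g1 (chr4:63544772-63550750, plus strand), Atp6v1g2 (chr17:35233660-35238767, plus strand), Atp6v0e (chr17:26663231-26699647, plus strand), Atp6v0e2 (chr6:48537615-48541801, plus strand) and Atp6v0a1 (chr11:101009452-101063719, plus strand). Subunit B had no second abundant isoform: Atp6v1b2 was at least 99.8% of subunit B in every library, and the B level averaged 47.1 CPM per kilobase in 3d-SN011, 72.3 in SN011, 84.4 in vehicle and 86.0 in sham libraries. In 3d-SN011 against vehicle libraries the shares of Atp6v1g1, Tcirg1 and Atp6v0e were higher. Most microglia and macrophage, astrocyte, oligodendrocyte and endothelial markers given above were higher too. The shares of Atp6v1g2, Atp6v0a1 and Atp6v0e2 were lower, as were most neuronal and most choroid plexus and ependymal markers. Among 3d-SN011 libraries, replicate 1 had the highest microglia and macrophage marker sum (8364 CPM) and the highest Atp6v1g1 share (80.0%). It also had the lowest projection neuron marker sum (373 CPM). Replicate 3 had the lowest microglia and macrophage marker sum (6240 CPM) and the highest Tcirg1 share (54.8%). The part of any of these markers in the shares was not tested.

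**Figure D5:**
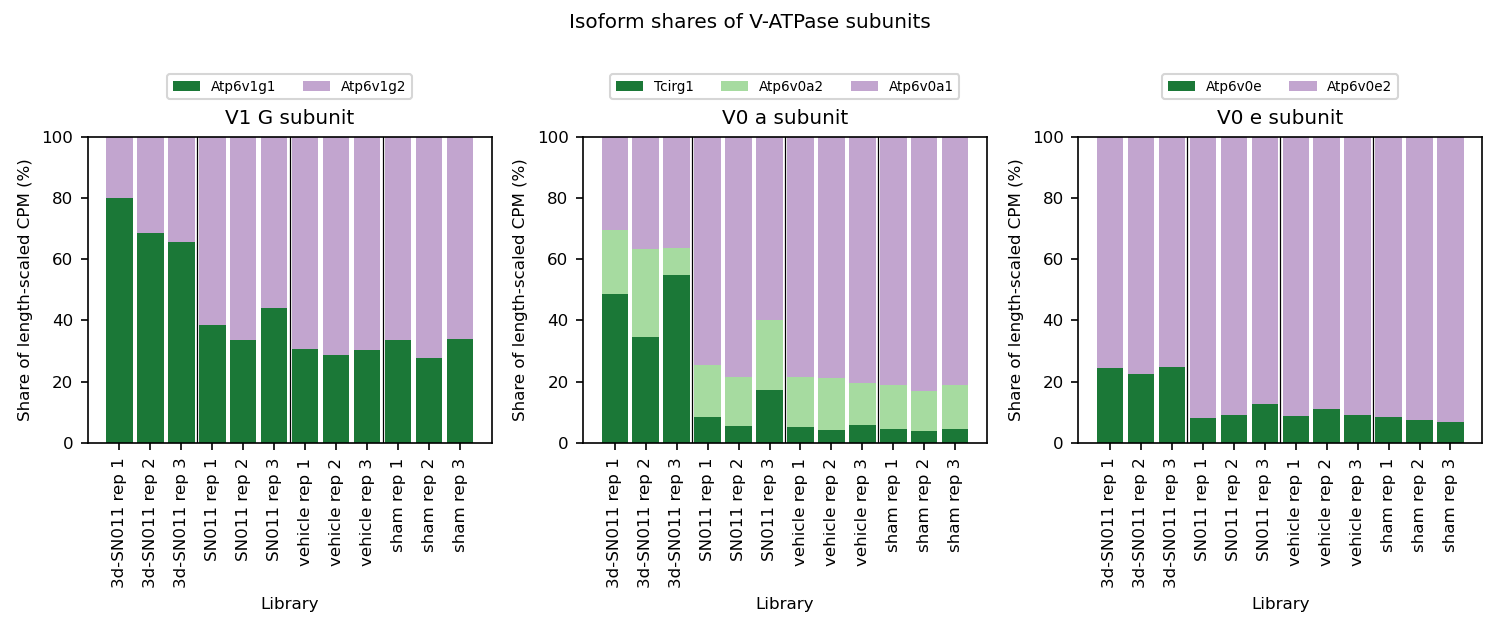
Share of length-scaled CPM (percent, y axes) taken by each isoform of the G, a and e subunits in each library (x axis, 3d-SN011 at the left). The dark isoforms Atp6v1g1, Tcirg1 and Atp6v0e take larger shares in all 3 libraries of 3d-SN011 than in any other library.

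The split between the subgroups was also present against the other groups; the 3d-SN011 libraries are shared by these comparisons. Against sham, 38 lysosomal members rose and 2 fell in 3d-SN011, and 5 V-ATPase members rose and 11 fell, where 29.8% of all genes were called higher and 27.9% lower; the median log2 fold changes were 2.03 over lysosomal members, -0.53 over V-ATPase members and 0.010 over all genes. Ctsk was not called there, Atp6v0c was called lower, and Atp6v0a2 was called higher but lost its call in 5 of the 6 fits that left out 1 of the libraries compared, all but the one without 3d-SN011 replicate 3. Against SN011, 38 lysosomal members rose and 2 fell in 3d-SN011, and 4 V-ATPase members rose and 10 fell, where 23.6% and 22.9% of all genes were called; the medians were 1.40, -0.37 and 0.028 in the same order. Without SN011 replicate 3 these counts were 36 and 2 lysosomal and 3 and 10 V-ATPase members, where 23.9% and 22.7% of all genes were called, and the medians were 1.69 over lysosomal and -0.44 over V-ATPase members. The V-ATPase members that rose against sham and against SN011 include Atp6v0d2, whose difference follows from the count rule. Atp6v0d2 lost its call against SN011 without 3d-SN011 replicate 1 (log2 fold change 1.66, adjusted p = 0.12), without SN011 replicate 2 (2.28, adjusted p = 0.0871) and without SN011 replicate 3 (2.25, adjusted p = 0.0660). Smpd1, Mcoln1, Mitf, Atp6v0b and Atp6v0d1 were called in no comparison by this fit. With offsets for GC content and length, Smpd1, Atp6v0b and Atp6v0d1 were called lower in 3d-SN011 against each other group, with log2 fold changes over vehicle of -0.31, -0.29 and -0.48 (adjusted p = 0.0279, 0.0276 and 0.00161), and Mitf was called higher against sham (0.47, adjusted p = 0.0115). Atp6v0d1 was also called lower without 3d-SN011 replicate 3, against vehicle (-0.28, adjusted p = 0.0272) and sham (-0.25, adjusted p = 0.0418).

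Against vehicle, no member was called in SN011 libraries, where 0.0162% of all genes were called (3 genes). An unadjusted p under 0.05 was found for 27 of 44 lysosomal members and 0 of 18 V-ATPase members, and for 11.1% of all genes. Called higher were 17 lysosomal members with DESeq2 (2.49% of all genes), 21 with limma voom with quality weights (4.21%) and 20 with edgeR and no filter on low counts (1.72%). With limma voom 1 V-ATPase member was called too, Atp6v0d2, whose difference was built into its selection. The median log2 fold change was 0.64 over lysosomal members, -0.09 over V-ATPase members and -0.0077 over all genes. Without SN011 replicate 3 the lysosomal median was 0.35 and the V-ATPase median -0.07, with no member called, where 0.0366% of all genes were. Without SN011 replicate 2, 19 lysosomal members were called higher, where 2.64% of all genes were. Replicate 3 also had the most microglia and macrophage marker CPM and the least projection neuron marker CPM of the SN011 libraries, values given above whose part in this was not tested.

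Member by member, all 3 SN011 libraries were higher than all 3 vehicle libraries in 23 lysosomal members (52.3%), against 9.01% of all genes, and lower in 1, Ids (2.27%), against 7.32%. Without SN011 replicate 3 the numbers were 24 (54.5%), against 11.9% of all genes, and 1, against 10.6%. Among V-ATPase members, Atp6v0a2 and Atp6v0d2 were higher (11.1%) and Atp6v0d1, Atp6v1b2, Atp6v1d and Atp6v1g2 lower (22.2%), with and without that library. Atp6v0d2 passed the count rule only through 3d-SN011 and SN011 libraries, so its difference was built into its selection. In the values given above, Ctsh, Lgmn, Ctsa, Glb1, Galns, Npc2, Cd63 and Grn had higher values in every SN011 than in every vehicle library, whereas Lamp1, Asah1, Tfeb, Tfe3 and Psap overlapped. The log2 fold change of SN011 over vehicle was 2.25 ± 0.49 (adjusted p = 0.149) for Ctsd, 1.97 ± 0.45 (adjusted p = 0.149) for Grn and 1.04 ± 0.31 (adjusted p = 0.213) for Lgmn. Without SN011 replicate 3 these were 1.14 ± 0.23 (adjusted p = 0.231) for Ctsd, 0.96 ± 0.19 (adjusted p = 0.231) for Grn and 0.53 ± 0.22 (adjusted p = 0.998) for Lgmn.

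Against sham, 0 members were called in SN011 libraries, where 0.113% of all genes were called (21 genes). An unadjusted p under 0.05 was found for 26 lysosomal members, 1 V-ATPase member and 12.8% of all genes. DESeq2 called 19 lysosomal members and Atp6v0d2 higher (3.27% of all genes), and edgeR with no filter 22 and Atp6v0d2 (2.19%). With limma voom 23 lysosomal members and Atp6v0d2 were higher (6.18% of all genes) and Ids was lower (3.94%). The difference of Atp6v0d2 was built into its selection. The medians were 0.73 over lysosomal members, -0.15 over V-ATPase members and 0.00095 over all genes. Without SN011 replicate 3 the medians were 0.35 over lysosomal and -0.08 over V-ATPase members, and Grn was the single call, where 0.193% of all genes were called higher. Without SN011 replicate 2 there were 22 lysosomal calls, where 3.45% of all genes were called higher. In vehicle against sham, 0 members and 0.0% of all genes were called; 0 members but 467 genes (2.52%) had an unadjusted p under 0.05, and DESeq2 and limma voom called 5 (0.027%) and 32 genes (0.173%), none of them a member. The medians were 0.04 over lysosomal members, -0.02 over V-ATPase members and 0.0051 over all genes, and no difference in these genes was detectable at this number of libraries.

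Other genes of the pathway are given from 3 lists. Of 36 further lysosomal genes, 26 rose and 3 fell in 3d-SN011 libraries against vehicle, with a median log2 fold change of 1.21. In this comparison 28.9% of all genes tested were called higher and 28.2% lower, which applies to all 3 lists. Those that fell were Mfsd8 (-0.96 ± 0.14, adjusted p = 0.000106), a lysosomal membrane protein, Sort1 (-0.70 ± 0.11, adjusted p = 0.000177), the sorting receptor sortilin that takes up progranulin, and Tmem175 (-0.37 ± 0.11, adjusted p = 0.0145), a lysosomal ion channel. Of 7 V-ATPase genes with other symbols, Tcirg1 and the assembly factor Ccdc115 (0.47 ± 0.17, adjusted p = 0.0314) rose, and Atp6ap2, an accessory subunit, fell (-0.56 ± 0.14, adjusted p = 0.00475), with a median of -0.06. These calls did not exceed the shares over all genes. Of 16 genes for V-ATPase assembly and lysosomal nutrient sensing, 7 rose and 6 fell, with a median of -0.17. Dmxl2 (-1.36 ± 0.19, adjusted p = 8.71e-05) and Wdr7 (-1.10 ± 0.13, adjusted p = 2.73e-05), which act together in joining V1 to V0, fell. Lamtor1 (0.86 ± 0.12, adjusted p = 7.82e-05), the membrane anchor of the Ragulator complex that recruits mTORC1, rose. Of the Rag GTPases on that anchor, Rragc rose (0.65 ± 0.14, adjusted p = 0.00149) and Rragd fell (-1.82 ± 0.25, adjusted p = 6.41e-05).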

How the data were processed

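The authors deposited a table of raw counts per gene for each library. Per the submitters' processing notes, HISAT2 and featureCounts were used with mm10; for versions, annotation and strand the sources used here give nothing, and without strand, reads of overlapping antisense genes cannot be told apart. Of the members, 9 share over 10% of their exon bases with another gene (Ctsa, Ctsb, Ctsd, Ctsl, Hexa, Arsa, Arsb, Sgsh and Atp6v0b). Libraries were sequenced as paired reads from polyA+ RNA, per the labels' protocols, and every table listed the same 54532 genes, of which 54409 had a symbol.

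All 12 libraries entered 1 model with group as the only term in edgeR 4.0.16 (R 4.3.3): filterByExpr with a minimum count of 10, TMM scaling, the quasi-likelihood test and Benjamini-Hochberg adjustment over 18537 genes, with calls at an adjusted p under 0.05. SE is the log2 fold change divided by the square root of F. The fit was also run on simulated data in which far fewer genes were changed than were called in 3d-SN011. That run therefore does not test the TMM scaling in the 3d-SN011 comparisons. CPM are scaled by TMM, and levels per kilobase use the exon length of GENCODE M21. Alternatives used limma 3.58.1, DESeq2 1.42.0, RLE scaling, no filter, a filter of 10 counts in 3 libraries, a replicate block, fewer libraries, each library left out, and GC and length offsets. Same-numbered libraries did not deviate together (correlations of -0.29 to 0.14), so the numbers were not used to pair them.

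Members and lists were chosen with earlier results of these data known. Values in every library are given for the members with the smallest adjusted p in each direction within each role, up to 3, for members called against their subgroup's majority, and for Tfeb, Tfe3 and Mitf. Ctsd, Gusb, Psap, Mcoln1, Smpd1, Neu1, Ctsk and the remaining V1 and V0 subunits were added after their values were seen.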

Additional observations from a re-analysis of the deposited data

How the results depend on the processing

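In 3d-SN011 against vehicle, 55 members were called, and all 55 kept their direction under every alternative run. The replicate block kept 55 of these 55 calls, 55 of 56 in 3d-SN011 against sham (Atp6v0a2 was lost) and 52 of 54 in 3d-SN011 against SN011 (Atp6v1a and Ctsk were lost). With only the 6 libraries compared, 13 of the 54 calls in 3d-SN011 against SN011 were lost. Among them were the lysosomal members Arsb, Ctsf, Ctsk, Neu1, Ppt1, Psap and Tfe3. In that fit 2 V-ATPase members were higher and 6 lower in 3d-SN011 than in SN011, instead of 4 and 10. With limma voom, 2 V-ATPase members were called higher in that comparison. In SN011 against vehicle, lysosomal members called higher numbered 0 with the main filter, 20 with no filter, 21 with limma voom and 17 with DESeq2, while all genes called higher numbered 2, 587, 781 and 426. The only V-ATPase member called higher in these fits was the selected Atp6v0d2, with limma voom. In SN011 against sham the lysosomal members called higher were 22 of 748 genes with no filter, 23 of 1145 with limma voom and 19 of 606 with DESeq2. With limma voom 1 lysosomal member was called lower, and the selected Atp6v0d2 was higher in each of these 3 fits. Offsets for GC content and length lost 2 calls and added 4 in 3d-SN011 against vehicle, lost 3 and added 4 against sham, and lost 7 and added 4 against SN011. The cause was not tested. Leaving out each library in turn gave 37 to 39 lysosomal members higher, 4 to 5 V-ATPase members higher and 9 to 11 lower in 3d-SN011 against vehicle. Against sham it gave 3 to 5 V-ATPase members higher. Against SN011 it gave 34 to 37 lysosomal members higher, fewer than the 38 with all libraries, and 2 to 5 V-ATPase members higher and 8 to 10 lower. The same gave 0 to 19 lysosomal members higher in SN011 against vehicle and 0 to 22 against sham. Depth limits Atp6v0d2, which has 0 to 2 counts in each vehicle library.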

Other observations

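Values chosen after they were seen describe how the lysosomal counts were distributed. Ctsd, Ctsb and Psap together held 52.9, 47.0 and 52.6% of the lysosomal counts in 3d-SN011, 40.5, 41.0 and 45.3% in SN011, 38.6, 38.2 and 40.5% in vehicle and 39.3, 39.4 and 38.7% in sham libraries. The 3d-SN011 libraries also differed among themselves: Hgsnat, which encodes the acetyltransferase of heparan sulfate breakdown and is no member, had a CPM of 30.6, 36.2 and 116 in 3d-SN011 libraries against 47.5, 44.3 and 44.2 in vehicle libraries. Ctsk had a CPM of 4.66, 1.93 and 11.6 in 3d-SN011 libraries against 1.81, 1.11 and 2.19 in vehicle libraries.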
